A study of Mus musculus with 12 samples.

Results

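Insulin-like growth factor 1 (Igf1), the receptors Igf1r and Igf2r, and the IGF binding proteins Igfbp1 to Igfbp7 were followed as transcripts in a murine hepatoblastoma cell line. The 10 genes were taken by name from the 45706 genes listed, and all 10 were present. Transcript levels are in TPM, which is scaled for transcript length and to a fixed total in each library, so that levels of different genes in a library can be set side by side. The 12 libraries came from BN1-Tie2-EGFP cells, a line from a liver tumor of FVB/N mice driven by a deletion mutant of β-catenin and a missense mutant of NRF2. Every group carried the Cdkn2a KO genotype and an EGFP reporter under the Tie2 (Tek) promoter, kept as a pool of stably transfected clones of this single line. The paper describes this genotype as CRISPR targeting that inactivated the locus in part, with mutant or truncated protein still made in BN1 cells. UN was unsorted cells in normoxia (21% O2), and UH was the same cells after 2 days in hypoxia (1% O2). SN was EGFP+ cells, sorted by flow cytometry after 2 days of hypoxia and expanded for about 10 days in normoxia, and SH was these sorted cells returned to 1% O2 for 2 days. Each group had 3 libraries. The replicates are described as independent, but how they were separated is not given in the sources used here, so p-values measure the spread between these libraries. Sorting, the earlier hypoxia and the expansion were shared by SN and SH, and their contributions cannot be told apart.

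IGF1 is a secreted growth factor that signals through IGF1R, a receptor tyrosine kinase feeding the PI3K and AKT pathway. IGF2R, also the cation-independent mannose 6-phosphate receptor, carries IGF2 to lysosomes for breakdown and does not act as a kinase. The binding proteins hold IGFs outside the cell, prolong their life and limit or deliver them to the receptor, and proteases such as pappalysin release the ligand by cutting them. In the adult liver hepatocytes are the main source of circulating IGF1, and IGF2 is the ligand of fetal liver. IGFBP7 differs from the other members of the family in its low affinity for IGFs.

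The IGF axis differed between groups chiefly in its ligand and binding proteins. Igf1 and Igfbp4 fell and Igfbp3 rose in hypoxia, in unsorted and in sorted cells. In sorted cells Igfbp2 fell to below 1 TPM, Igfbp7 fell about 4-fold to 6-fold, and Igfbp4 was 4-fold to 5-fold higher than in unsorted cells at the same oxygen level. Igf1r and Igf2r were not called in any comparison. A gene was called when limma, run on log2(TPM + 1) over all 18909 genes with a mean of at least 0.1 TPM, gave an adjusted p below 0.05 and a log2 fold change beyond 1 in either direction. On this scale the change of genes near or below 1 TPM is understated. Of the members, 9 could be tested, and Igfbp1 was below the filter.

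The libraries of a group correlated at 0.977 to 0.991 (Pearson r across genes) and those of different groups at 0.903 to 0.960. Of a list of 10 genes known to rise at low oxygen, 9 were called higher in UH than UN and 9 in SH than SN, with none lower. One library, UN replicate 1, stood apart: its fibroblast and stellate markers summed to 5161 TPM against 1323 and 1176 TPM in the other UN libraries, and Igfbp3 was lowest there. For the members, values without it are given where they change a result. Results for the marker and pathway genes rest on all 3 UN libraries and were not recomputed without it. On a list of 10 hepatocyte and hepatoblast markers, hepatic identity was weakly marked. These markers summed to 99.0 to 229 TPM over all libraries, Alb averaged 2.51 TPM in UN, and Epcam was at 0 in SN and SH. Of the 8 tested markers of this list, 1 was called higher and 5 lower in SN than UN. The higher one was Afp, which averaged 1.83 TPM in UN and 9.20 TPM in SN. The 5 lower ones were Krt8 (log2 fold change -3.43), Apob (-2.23), Hnf4a (-1.86), Alb (-1.56) and Foxa2 (-1.21). In SH against UH 1 was higher, again Afp (log2 fold change 1.40), and 1 lower. With hypoxia, 0 were higher and 3 lower in UH against UN: Hnf4a (-1.97), Apob (-1.87) and Foxa2 (-1.48). In SH against SN 1 was higher, Krt8 (1.02), and 0 lower. Krt18 averaged 93.4 TPM in UN, 126 TPM in SN and 128 TPM in SH, and was not called in SN against UN. Krt8 averaged 65.5 TPM in UN, 4.78 TPM in SN and 10.8 TPM in SH. The paper reports that sorted cells still expressed a wider group of hepatocyte-specific genes, a small part of them upregulated. Of the 10 endothelial markers, Tie1 and Emcn were at 0 in UN and UH, and the list summed to at most 13.0 TPM. Of its 6 tested genes, Tek, whose promoter drives the reporter used for the sort, and Plvap were called higher in SN than UN (limma log2 fold change 1.62 and 1.02) and Egfl7 lower (-1.97), and Plvap was called higher in hypoxia in both populations (1.15 and 1.11), with Vwf higher in SH than SN (1.02). Mitochondrially encoded transcripts also moved with oxygen, and made up between 5.18% and 7.55% of TPM in UN, 1.67% and 2.53% in UH, 7.64% and 8.38% in SN, and 2.66% and 4.68% in SH. The part of these shifts in the levels of the members was not tested. All 4 groups were grown cell populations measured in bulk, in which fewer cells of a type and less RNA per cell cannot be told apart.

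**Figure D1:**
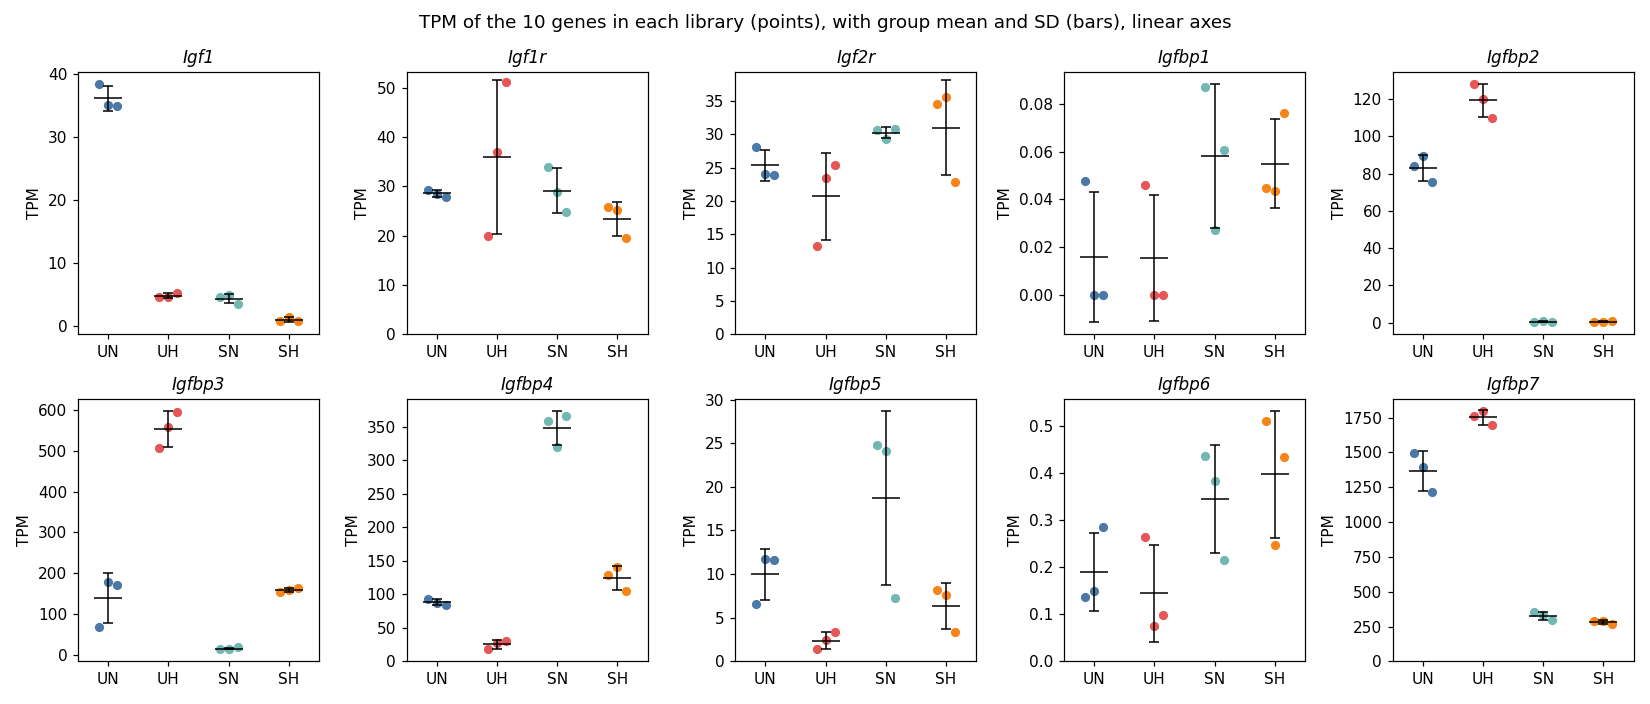
TPM of each of the 10 genes in the 12 libraries (points, 3 per group; horizontal bars, group means; whiskers, SD; linear axes). Igf1 is highest in UN, Igfbp3 in UH and Igfbp4 in SN, while Igf1r and Igf2r stay between 13.3 and 51.1 TPM in every library.

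Igf1, the ligand (chromosome 10, 87858265 to 87937042, plus strand, GRCm38), was lower after hypoxia and lower after sorting. Its level was 38.5, 35.1 and 35.0 TPM in the UN libraries and 4.66, 4.57 and 5.23 TPM in UH. In the sorted cells it was 4.64, 4.89 and 3.51 TPM in SN and 0.814, 1.48 and 0.720 TPM in SH. UN stood far above all other libraries, UH and SN overlapped, and every SH library lay below every other. Igf1 was thus 7.51-fold lower in UH than UN (log2 fold change -2.68, SE 0.168, limma adjusted p = 2.96e-07) and 4.32-fold lower in SH than SN (-1.42, SE 0.168, adjusted p = 5.15e-05). Cells that had been sorted were already 8.33-fold below unsorted cells in normoxia (limma log2 fold change -2.81, adjusted p = 3.36e-07) and 4.79-fold below them in hypoxia (-1.55, adjusted p = 2.42e-05). Mean levels therefore ran UN, UH, SN, SH, with UH and SN not called different (log2 fold change of SN over UH -0.13, limma adjusted p = 0.560). From the first to the last group, UN to SH, Igf1 was 36.0-fold lower. The drop in hypoxia was smaller in sorted than in unsorted cells on the log2(TPM + 1) scale, where the 2 responses differed by 1.25 (SE 0.237, limma adjusted p = 0.00389). This difference in response was not called with a pseudocount of 0.1 in place of 1 (0.83, limma adjusted p = 0.0983) or with 2 other scalings, and the SH levels lie near the pseudocount.

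Igf1r (chromosome 7, 67952827 to 68233668, plus strand) is the receptor through which IGF1 signals. Its level was 29.4, 28.5 and 27.7 TPM in UN and 19.9, 36.9 and 51.1 TPM in UH. It was 33.9, 28.8 and 24.7 TPM in SN and 25.7, 25.1 and 19.4 TPM in SH. The UH libraries spread more widely than those of any other group and enclosed the UN values. The log2 fold change was 0.23 in UH over UN (95% interval -0.35 to 0.80, limma adjusted p = 0.519) and -0.30 in SH over SN (adjusted p = 0.396). A higher level of up to 0.80 on the log2 scale therefore lay within the interval for unsorted cells.

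Igf2r (chromosome 17, 12682406 to 12769664, minus strand), the receptor that clears IGF2, was at 28.1, 24.1 and 23.9 TPM in UN and 13.3, 23.4 and 25.4 TPM in UH. It was 30.6, 29.3 and 30.8 TPM in SN and 34.6, 35.6 and 22.8 TPM in SH. Only SN lay wholly above UN, by 0.25 on the log2 scale (limma adjusted p = 0.435). The response to hypoxia was -0.33 in unsorted cells (limma adjusted p = 0.256) and 0.01 in sorted cells (adjusted p = 0.985), both with overlapping libraries. The levels of both receptors were of the same order as Igf1 in UN, and well above it in the other groups.

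Igfbp3, the main carrier of IGFs in serum, was the one member that rose with hypoxia past the call in both populations. It lies on chromosome 11 (7206086 to 7213923, minus strand), tail to tail with Igfbp1 at a gap of 3.5 kb. The 250 bases before its start are shown beside those of Igfbp4, because these 2 genes moved in opposite directions under hypoxia. The letters searched were ACGTG and GCGTG, the core of the hypoxia response element, on both strands, and matches are in capitals; a CACGTG counts on both strands. Sequences are from RefSeq (GRCm38.p6), 5′ to 3′ on the strand of the gene, with Igfbp3 at chr11:7213924-7214173 (minus) and Igfbp4 at chr11:99040994-99041243 (plus).
Igfbp3: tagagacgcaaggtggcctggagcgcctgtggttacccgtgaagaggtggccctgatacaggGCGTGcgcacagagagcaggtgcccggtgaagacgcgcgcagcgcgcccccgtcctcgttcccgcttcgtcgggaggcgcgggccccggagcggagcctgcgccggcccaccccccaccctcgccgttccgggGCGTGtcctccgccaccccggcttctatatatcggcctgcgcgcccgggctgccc
Igfbp4: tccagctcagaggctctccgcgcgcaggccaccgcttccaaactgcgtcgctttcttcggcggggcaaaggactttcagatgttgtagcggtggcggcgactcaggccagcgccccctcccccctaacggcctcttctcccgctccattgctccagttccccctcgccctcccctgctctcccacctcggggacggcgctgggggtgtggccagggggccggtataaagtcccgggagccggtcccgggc
The Igfbp3 window held 2 matches, 188 and 55 bases before the start, and the Igfbp4 window held none. Of 32851 such windows over all genes, 38.6% held at least 1 match and 16.7% at least 2, so that these letters are common. A match is a description of the sequence and not a binding site.

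Igfbp3 was at 67.5, 179 and 170 TPM in UN and at 506, 559 and 594 TPM in UH. In sorted cells it was at 14.2, 13.2 and 17.6 TPM in SN and at 154, 159 and 163 TPM in SH. The hypoxic libraries lay above the normoxic ones of the same population, and SH reached only the range of UN. Igfbp3 was 3.98-fold higher in UH than UN (log2 fold change 2.11, SE 0.286, limma adjusted p = 9.51e-05) and 10.6-fold higher in SH than SN (3.33, SE 0.286, adjusted p = 5.44e-06). Sorted cells had less of it, by 9.26-fold in normoxia (limma log2 fold change -3.01, adjusted p = 1.27e-05) and by 3.49-fold in hypoxia (-1.79, adjusted p = 0.000422). The order of means was UH, SH, UN, SN, and SH and UN were not called different (0.32, limma adjusted p = 0.379). The 2 responses differed by 1.22 (SE 0.405, limma adjusted p = 0.0508), short of the threshold. UN replicate 1 weighed on these values: without it the rise in UH was 1.66 (limma adjusted p = 2.40e-06), SH lay 0.14 below UN (log2 fold change -0.14), and the responses differed by 1.67 (adjusted p = 5.99e-05), which was then called.

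Igfbp4, a binding protein that restrains IGF action until pappalysin cuts it, moved the opposite way to Igfbp3. It lies on chromosome 11 (99041244 to 99054392, plus strand), and was at 92.9, 87.5 and 84.8 TPM in UN and 17.9, 27.6 and 30.9 TPM in UH. The sorted cells had 359, 320 and 367 TPM in SN and 129, 140 and 105 TPM in SH. No library of one group fell within the range of another. Igfbp4 was 3.48-fold lower in UH than UN (log2 fold change -1.79, SE 0.172, limma adjusted p = 7.06e-06) and 2.79-fold lower in SH than SN (-1.48, SE 0.172, adjusted p = 4.58e-05). It was 3.94-fold higher in SN than UN (limma log2 fold change 1.96, adjusted p = 6.40e-06) and 4.91-fold higher in SH than UH (2.28, adjusted p = 1.53e-06). Even after hypoxia, sorted cells held more than unsorted cells in normoxia, although this difference stayed below 2-fold (0.49, limma adjusted p = 0.0317).

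Igfbp5, a binding protein that is also cut by pappalysins and lies tail to tail with Igfbp2 on chromosome 1 (72857932 to 72874884, minus strand, gap 5.5 kb), had the direction of Igfbp4 in hypoxia at lower levels. It was at 6.54, 11.7 and 11.6 TPM in UN and 1.38, 2.40 and 3.35 TPM in UH. SN had 24.8, 24.1 and 7.25 TPM and SH 8.15, 7.60 and 3.33 TPM. The unsorted groups did not overlap, whereas the third SN library lay within the range of SH. Igfbp5 was 4.19-fold lower in UH than UN (log2 fold change -1.70, SE 0.446, limma adjusted p = 0.0081). The drop of 2.95-fold in SH against SN (-1.32, SE 0.446, limma adjusted p = 0.0328) was less firm: without SN replicate 1, SN replicate 2, SH replicate 2 or SH replicate 3 it was -1.04, -1.06, -1.47 or -0.98 and not called. SN over UN was 0.71 (limma adjusted p = 0.251), but 1.26 and called (adjusted p = 0.0294) without SN replicate 3.

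**Figure D2:**
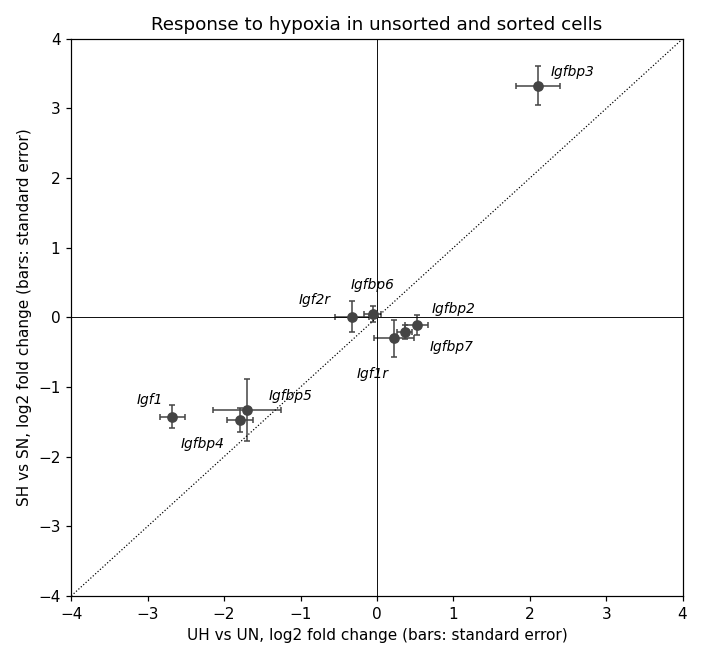
Log2 fold change of the 9 tested genes in hypoxia, in unsorted cells (x axis, UH vs UN) and sorted cells (y axis, SH vs SN), with standard errors from limma and the line of equal response (dotted). Igfbp3 lies high in both (2.11 and 3.33), Igf1, Igfbp4 and Igfbp5 lie low in both, and the remaining 5 genes lie within 0.52 of 0 on both axes.

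Igfbp2 and Igfbp7 differed between unsorted and sorted cells far more than with oxygen. Igfbp2 is an abundant binding protein of fetal liver, and Igfbp7 is a secreted protein of stromal and vascular cells. Igfbp2 lies on chromosome 1 (72824503 to 72852474, plus strand) and Igfbp7 on chromosome 5 (77349240 to 77408041, minus strand). The windows before their starts, read in the same way, are shown since the 2 genes followed the same pattern over the libraries. They lie at chr1:72824230-72824479 (plus) for Igfbp2, the first of 2 starts, and at chr5:77408046-77408295 (minus) for Igfbp7.
Igfbp2: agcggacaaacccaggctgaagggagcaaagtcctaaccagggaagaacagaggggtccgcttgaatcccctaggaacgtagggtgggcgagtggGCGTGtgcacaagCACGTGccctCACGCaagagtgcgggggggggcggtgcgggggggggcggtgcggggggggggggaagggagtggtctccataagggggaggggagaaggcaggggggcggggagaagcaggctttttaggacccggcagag
Igfbp7: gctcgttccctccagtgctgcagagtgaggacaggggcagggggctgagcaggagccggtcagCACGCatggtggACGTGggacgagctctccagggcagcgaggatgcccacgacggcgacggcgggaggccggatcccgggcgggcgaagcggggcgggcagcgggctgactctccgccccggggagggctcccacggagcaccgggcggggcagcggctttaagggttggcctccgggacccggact
The Igfbp2 window held 4 matches to the letters, a count reached by 2.6% of all windows, while the window of its other start, at chr1:72825137-72825386, held 0. The Igfbp7 window held 2. Neither gene was called in hypoxia. The windows of Igf1r and Igf2r held 3 and 6 matches, those of Igf1 and Igfbp1 held 1 each, and those of Igfbp5 and Igfbp6 none.

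Igfbp2 was at 83.9, 89.4 and 75.6 TPM in UN and 128, 120 and 110 TPM in UH. It was at 0.570, 0.848 and 0.503 TPM in SN and 0.585, 0.258 and 0.748 TPM in SH. The unsorted libraries were all at least 75.6 TPM and the sorted ones all below 1 TPM. The mean was 130-fold lower in SN than UN (log2 fold change -5.68, SE 0.148, limma adjusted p = 9.88e-10) and 225-fold lower in SH than UH (-6.31, adjusted p = 1.79e-10). Hypoxia left UH above UN without overlap but below a 2-fold change (0.52, limma adjusted p = 0.0126), and SH over SN was -0.11 (adjusted p = 0.611).

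Igfbp7 was the most abundant member in UN, UH and SH, at 1495, 1392 and 1212 TPM in UN and 1763, 1799 and 1695 TPM in UH. It was at 357, 330 and 299 TPM in SN and 291, 291 and 266 TPM in SH. The sorted cells thus kept a high level of it while losing most of Igfbp2. Igfbp7 was 4.16-fold lower in SN than UN (log2 fold change -2.05, SE 0.101, limma adjusted p = 6.57e-08) and 6.19-fold lower in SH than UH (-2.63, adjusted p = 7.33e-09). Its hypoxia responses were small, 0.36 in unsorted cells (limma adjusted p = 0.0112) and -0.21 in sorted cells (adjusted p = 0.115), neither with overlap. They differed from each other by -0.58 (SE 0.143, limma adjusted p = 0.0149), below the 2-fold limit for a call.

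The 10 fibroblast and stellate markers, taken as a sum, also differed between sorted and unsorted cells, though not every marker did. They summed to 1176 to 5161 TPM in UN and 4853 to 7134 TPM in UH, against 201 to 211 TPM in SN and 56.6 to 77.9 TPM in SH. Of the 9 tested, 5 were lower in SN than UN with none higher, and 6 were lower and 1 higher in SH than UH. With hypoxia, 3 were higher and 3 lower in UH against UN, and 2 higher and 3 lower in SH against SN. Counts against UN include UN replicate 1 and were not recomputed without it. That library was the highest of UN for Dcn, called lower in UH (349, 86.2 and 81.3 TPM in UN). It was also the highest for Col3a1, called higher in UH (1960, 222 and 173 TPM in UN). Col1a1 averaged 704 TPM in UN and 6.66 TPM in SN, Pdgfra 142 and 1.59 TPM, whereas Pdgfrb averaged 44.7 and 43.8 TPM. These UN means also include UN replicate 1. By library, Col1a1 was at 1186, 499 and 428 TPM in UN, and Pdgfra at 80.4, 168 and 176 TPM. Pdgfrb was at 74.6, 31.1 and 28.4 TPM in UN and 43.3, 40.3 and 47.7 TPM in SN. Its SN levels thus lay above the UN libraries other than replicate 1. Lum was at 0 in UH and SN. The 6 macrophage and leukocyte markers summed to 88.4 to 117 TPM in UN, 46.1 to 49.7 TPM in UH, 304 to 345 TPM in SN and 125 to 135 TPM in SH, mostly from Cd14, with Adgre1 at 0 in UN, UH and SN. Cd14 fell with hypoxia in unsorted (-1.74, limma adjusted p = 8.47e-07) and sorted cells (-2.16, adjusted p = 3.60e-07), and its means ran SN, UN, SH, UH. Of the 4 tested genes of this list, 2 were called higher and 1 lower in UH against UN. In SH against SN 1 was higher and 1 lower. Cd68 was called higher with hypoxia in both populations (log2 fold change 1.83 and 2.66), and Csf1r in UH against UN (1.17). The part of either list in the levels of Igf1, Igfbp2, Igfbp3, Igfbp4 and Igfbp7 was not tested.

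Igfbp1 and Igfbp6 were near the lower limit of the data. Igfbp1 (chromosome 11, 7197782 to 7202546, plus strand), a binding protein of hepatocytes that insulin represses, was at 0 in 4 libraries and reached at most 0.0871 TPM, in SN. It could not be tested, and a change with oxygen was not detectable at these levels. Igfbp6 (chromosome 15, 102144362 to 102149511, plus strand), which prefers IGF2 over IGF1, ranged from 0.0744 to 0.511 TPM and overlapped between groups in both hypoxia comparisons (-0.06 in UH over UN, limma adjusted p = 0.724; 0.05 in SH over SN, adjusted p = 0.757).

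**Figure D3:**
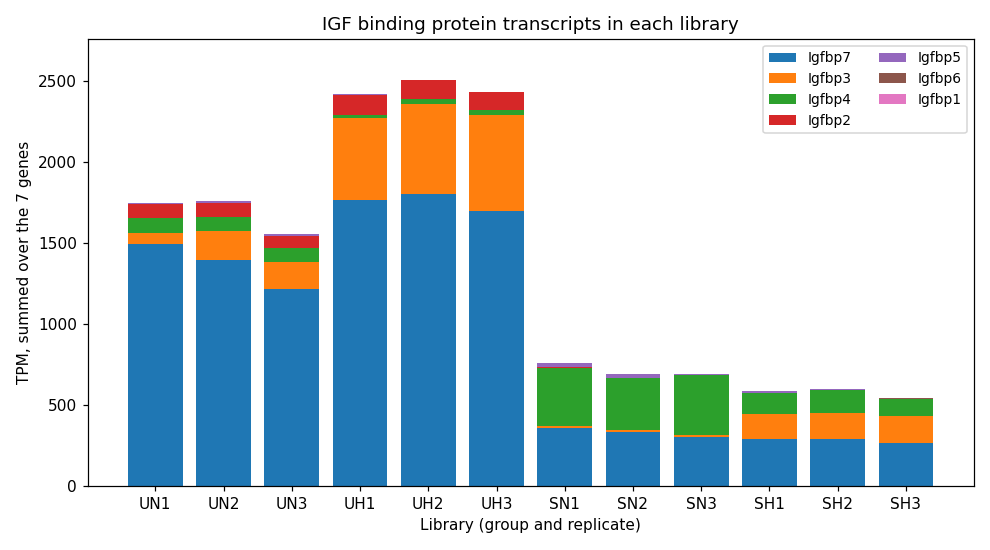
Summed TPM of the 7 binding protein genes in each of the 12 libraries, stacked by gene. Igfbp7 makes up most of the bar in UN and UH, and Igfbp4 and Igfbp7 share the shorter bars of SN, with Igfbp3 added in SH.

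The binding protein transcripts were also compared as a pool. Their summed level was 1687 ± 115 TPM in UN (SD, n = 3), 2453 ± 48.8 TPM in UH, 712 ± 38.2 TPM in SN and 574 ± 30.9 TPM in SH. The pool was thus larger in every UH library than in any UN library, and smallest in SH. Igfbp7 supplied 80.9% of it in UN and 71.4% in UH, but 46.1% in SN and 49.3% in SH. Igfbp4 made up 49.0 ± 3.55% in SN and 1.04 ± 0.269% in UH (SD, n = 3). Igfbp3 went from 8.32% to 22.5% of the pool with hypoxia in unsorted cells and from 2.11% to 27.7% in sorted cells. In SH the pool was therefore made of Igfbp7, Igfbp3 and Igfbp4, in that order, and Igfbp2 had gone from 4.92% in UN to 0.0940%.

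Counted over the members, 1 rose and 3 fell in UH against UN, where 5.46% of all tested genes were called higher and 11.8% lower (17.2% in all). The same counts, 1 and 3, were found in SH against SN, with 7.47% and 5% of all genes called (12.5% in all). In SN against UN, 1 rose and 4 fell, where 3.2% and 7.57% of all genes were called (10.8% in all), and in SH against UH again 1 rose and 4 fell, against 7.65% and 5.35% (13% in all). The median log2 fold change of the 9 tested members was -0.06 in UH over UN and -0.21 in SH over SN, and over all tested genes it was -0.19 and 0.03. For sorted against unsorted cells the members' median was 0.02 in normoxia and -0.51 in hypoxia, beside -0.06 and 0.17 over all genes. The members thus moved in different directions. With median-of-ratios scaling, which sets the typical gene to no change, the 4 members called in UH against UN were the same, whereas the share of all calls that were higher went from 31.7% to 56.2%. It went from 58.8% to 43.6% in SH against UH, and with quantile normalization from 29.7% to 42.5% in SN against UN. The libraries of the groups did not overlap for 6 members in UH against UN (51.1% of all tested genes), 4 in SH against SN (56.8%), 6 in SN against UN (49%) and 5 in SH against UH (51.7%), shares near those of all genes. Between the starting cells and the final sorted hypoxic cells, SH against UN, 3 members were called, all lower (11.3% of all genes called lower and 8.97% higher, 20.3% in all): Igf1, Igfbp2 at 156-fold and Igfbp7 at 4.83-fold. In SN against UH, 2 were higher and 3 lower (12.3% and 9.17% of all genes, 21.4% in all), the higher ones being Igfbp4 and Igfbp5. For the difference of the responses to hypoxia 1 member, Igf1, was called, as higher (8.08% of all genes called higher and 2.18% lower, 10.3% in all). In SH against UN and SN against UH, 5 and 6 members did not overlap (59.4% of all genes in either). Comparisons that share a group are not independent of each other.

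**Figure D4:**
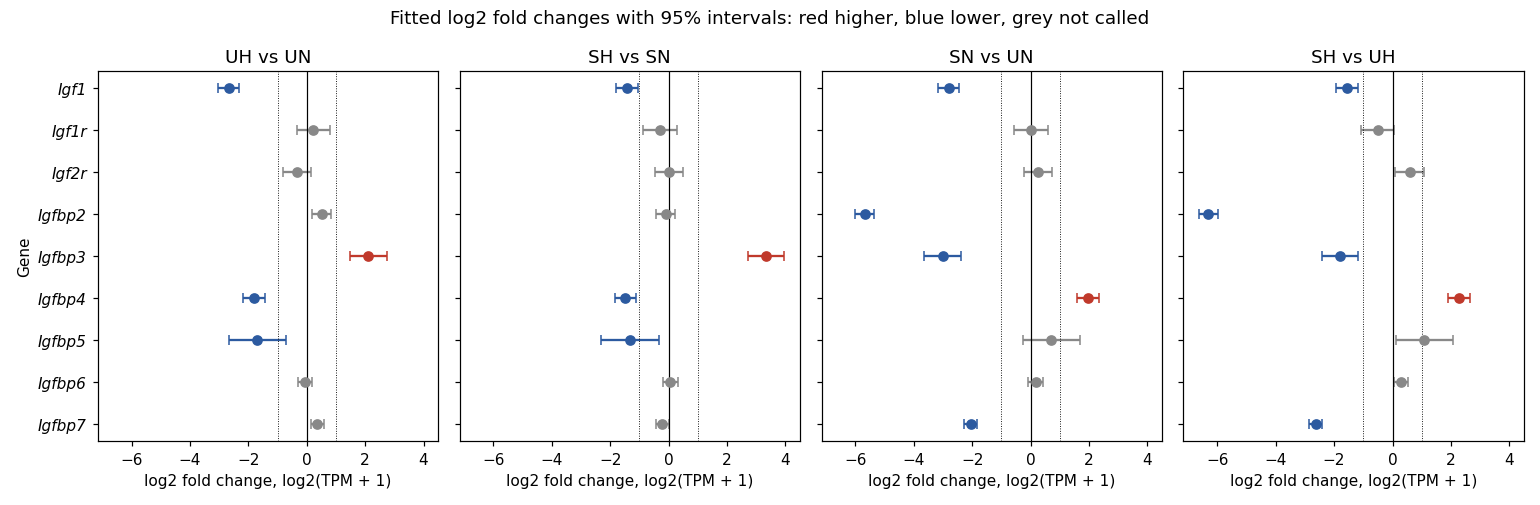
Log2 fold changes with 95% intervals from limma for the 9 tested genes in the 4 main comparisons (red, called higher; blue, called lower; grey, not called; dotted lines at -1 and 1). Igf1, Igfbp3, Igfbp4 and Igfbp5 are called in both hypoxia comparisons, and Igfbp2 and Igfbp7 in both comparisons of sorted with unsorted cells.

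Patterns over the 12 libraries were compared as a description, by Pearson r of log2(TPM + 1), with the libraries sharing 4 groups. Igfbp2 and Igfbp7 were the closest pair among the members (r = 0.994), Igfbp4 and Igfbp5 came next (r = 0.818), and Igfbp3 and Igfbp4 were the most opposed (r = -0.932). Among 13567 genes with a mean of at least 1 TPM, the 3 closest to Igf1 were Mrps16 (r = 0.994), Cab39l (r = 0.988) and Cdk14 (r = 0.987). Igfbp3 was closest to Grhpr (r = 0.996), Usp13 and Arhgap29, and Igfbp4 to Dusp6 (r = 0.991), Slc16a10 and Slc9a5. Nes was among the 3 closest for both Igfbp2 (r = 0.996, with Ptrf and Slit3) and Igfbp7 (r = 0.997, with Fndc1 and Gpr176). Igfbp5 was closest to Gm38345 (r = 0.961), Klhl42 and Eml4. For the members called in no comparison, the closest genes were D15Ertd621e for Igf1r (r = 0.944), Herc1 for Igf2r (r = 0.966) and Selo for Igfbp6 (r = 0.898).

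Around the members, 41 further genes of the pathway were listed by role, of which 34 could be tested. In UH against UN, 4 were higher, 6 lower and 24 not called (17.2% of all tested genes called), and in SH against SN 4 were higher, 1 lower and 29 not called (12.5% of all genes called). In SN against UN 3 were higher, 6 lower and 25 not called (10.8% of all genes called), and in SH against UH 3 were higher, 3 lower and 28 not called (13% of all genes called). Among the ligands, Igf2, the fetal growth factor that IGF2R clears, was at 67.4, 114 and 106 TPM in UN, 76.5, 68.6 and 84.4 TPM in UH, 2.82, 2.66 and 5.22 TPM in SN, and 2.44, 1.15 and 1.81 TPM in SH. Sorted and unsorted cells did not overlap, and Igf2 was lower by 26.9-fold in SN than UN (log2 fold change -4.41, SE 0.252, limma adjusted p = 2.30e-07) and by 42.5-fold in SH than UH (-4.81, adjusted p = 9.03e-08). Both IGF ligands were thus low in sorted cells. Ins1 was at 0 in all libraries. The insulin receptor Insr averaged 6.59 TPM in UN, 10.8 in UH, 10.4 in SN and 15.1 in SH, and was called only for SH over UN (1.06, limma adjusted p = 0.00147).

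Of the 7 proteases that cut binding proteins and their inhibitors, 6 could be tested. In UH against UN 3 of them were higher (Stc1, Stc2 and Htra1) and 2 lower (Pappa and Adam12), and in SH against SN 2 were higher (Stc1 and Htra1) and none lower. Pappa, the pappalysin that cuts Igfbp4, was at 1.83, 5.13 and 5.34 TPM in UN and 0.151, 0.340 and 0.440 TPM in UH (log2 fold change -1.88, limma adjusted p = 7.73e-05). It was at most 0.154 TPM in SN and 0.0285 TPM in SH. Pappa was thus highest where Igf1 was highest, and Pappa2 stayed at or below 0.493 TPM. Stc1 and Stc2 are stanniocalcins, which inhibit pappalysins. Stc1 rose from 3.54 ± 0.478 TPM in UN to 34.5 ± 8.63 TPM in UH (SD, n = 3; 2.94, limma adjusted p = 3.71e-07) and from 7.90 ± 1.48 TPM in SN to 18.3 ± 2.08 TPM in SH (1.12, adjusted p = 0.000608). Stc2 rose from 10.6, 13.1 and 12.4 TPM in UN to 50.4, 59.6 and 59.1 TPM in UH (2.14, limma adjusted p = 1.04e-06), while in sorted cells it was 35.3 ± 1.76 and 48.9 ± 11.2 TPM and not called (0.43, adjusted p = 0.0461). The response was smaller in sorted cells for both, by 1.82 for Stc1 (difference -1.82, SE 0.267, limma adjusted p = 0.000918) and by 1.71 for Stc2 (-1.71, SE 0.223, adjusted p = 0.000469). Htra1, a secreted serine protease, rose in both populations, from 105 to 552 TPM on average in unsorted cells (2.39, limma adjusted p = 5.95e-07) and from 25.4 to 242 TPM in sorted cells (3.23, adjusted p = 1.38e-07). Its order of means, UH, SH, UN, SN, was that of Igfbp3.

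**Figure D5:**
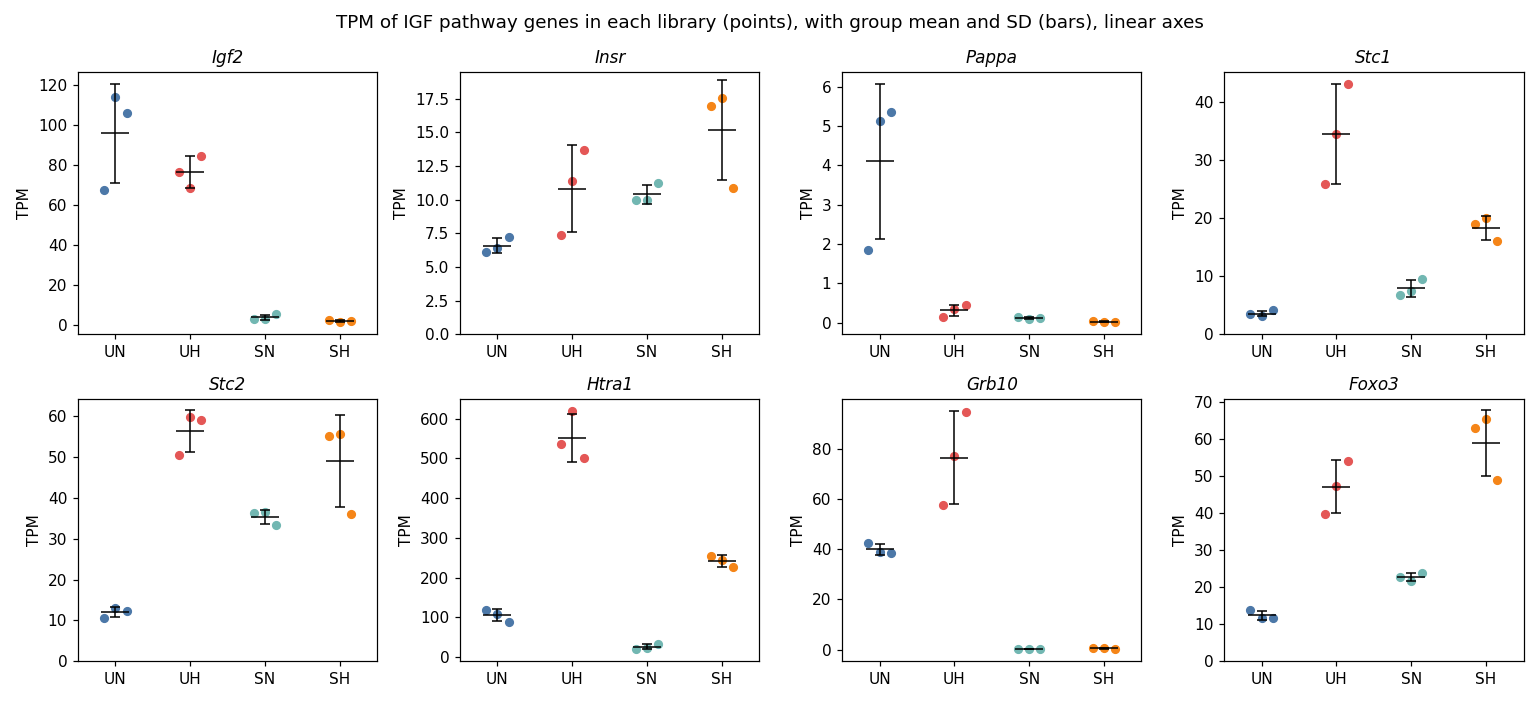
TPM of pathway genes around the members in the 12 libraries (points, 3 per group; horizontal bars, group means; whiskers, SD; linear axes). Igf2 is low in both sorted groups, and Stc1, Stc2 and Htra1 are higher in UH than UN.

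Inside the cell, Grb10, an adaptor that dampens signalling of the IGF1 and insulin receptors, averaged 39.9 TPM in UN, 76.5 in UH, 0.0875 in SN and 0.620 in SH. It was lower in sorted cells by -5.23 in normoxia (SE 0.174, limma adjusted p = 2.81e-09) and by -5.56 in hypoxia (adjusted p = 1.65e-09) on the log2 scale. Foxo3, a transcription factor that AKT holds out of the nucleus, rose with hypoxia in unsorted (1.83, limma adjusted p = 1.29e-06) and sorted cells (1.33, adjusted p = 2.21e-05). Adam12, a metalloprotease that can cut Igfbp3 and Igfbp5, fell in UH against UN (-1.59, limma adjusted p = 6.71e-05) and was lower in SN than UN (-1.84, adjusted p = 4.58e-05). Grb14, another adaptor, fell in UH against UN as well (-1.56, limma adjusted p = 2.74e-06). Igf2bp1, which binds Igf2 mRNA, was higher in SN than UN (2.18, limma adjusted p = 0.000275) and fell in SH against SN (-1.40, adjusted p = 0.00392). Igf2bp1 was also higher in SH than UH (1.04, limma adjusted p = 0.0194) and, with its relative Igf2bp3 (1.82, adjusted p = 1.49e-05), in SN than UH (2.44, adjusted p = 4.61e-05). Igf2bp3 itself fell in UH against UN (-1.52, limma adjusted p = 8.41e-05) and was not called in SN against UN (0.30, adjusted p = 0.290). Kazald1, a relative of the binding proteins, rose in SH against SN (1.38, limma adjusted p = 0.00424), was higher in SH than UH (1.11, adjusted p = 0.014), and responded differently in the 2 populations (difference 1.73, adjusted p = 0.0176), as did Adam12 (1.28, adjusted p = 0.00998). Irs2, a docking protein of the receptors, was higher in SH than UH (1.02, limma adjusted p = 0.00311), and Igf2bp2 was higher in SN than UN (1.03, adjusted p = 0.000177).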

How the data were processed

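RNA of BN1-Tie2-EGFP cells was sequenced as stranded poly(A) libraries, 3 each of UN, UH, SN and SH. Per the submitters' processing notes the authors ran nf-core/rnaseq 3.12.0 on mm10 and deposited Salmon gene TPM values, with the same sum in every library. Read counts were not used here, so the depth behind a value is unknown, and the annotation release is not given in the sources used here. Log2(TPM + 1) values of genes with a mean of at least 0.1 TPM (18909 of 45706) went into 1 linear model of 4 group means over all 12 libraries (limma 3.58.1 with trend, R 4.3.3), and p-values were adjusted by Benjamini-Hochberg within each comparison. The difference of hypoxia responses was (SH - SN) - (UH - UN). An exact permutation test of 3 against 3 cannot go below p = 0.1 and was not used for calls. The script was tested on simulated data. Positions are from GENCODE M21 (GRCm38) and promoter windows from RefSeq (GRCm38.p6), in which all 10 members matched. All members are named, and from the pathway list the called genes with the 3 largest changes in each direction per comparison plus Igf2, Insr, Pappa, Pappa2, Stc1 and Stc2. For likeness the 3 genes of highest Pearson r were taken. The members and the gene lists were chosen with earlier results of these data known. Alternatives were other pseudocounts, filters, scalings, group subsets, a replicate block and leaving out each library. Figures were drawn with matplotlib 3.10.9.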

Additional observations from a re-analysis of the deposited data

Results flagged for a closer look

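Responses to hypoxia that differed between unsorted and sorted cells, by the limma test of the difference itself, were found for 6 of the genes named. Igf1 fell less in sorted cells (difference 1.25, SE 0.237, adjusted p = 0.00389), with all 3 UH libraries below UN and all 3 SH libraries below SN, but this was not called with a pseudocount of 0.1 (0.83, limma adjusted p = 0.0983), median-of-ratios scaling (0.95) or quantile normalization (0.75). The response of Pappa, a fall in unsorted cells, was also smaller (1.75, SE 0.351, limma adjusted p = 0.00528), and its sorted levels lay below the pseudocount, which compresses the change. Stc1 (-1.82, SE 0.267, limma adjusted p = 0.000918) and Stc2 (-1.71, SE 0.223, adjusted p = 0.000469) had smaller responses in sorted cells, with mean SN levels of 7.90 and 35.3 TPM. Kazald1 differed by 1.73 (SE 0.444, limma adjusted p = 0.0176), with a rise called in sorted cells, and Adam12 by 1.28 (SE 0.291, limma adjusted p = 0.00998), with a fall called in unsorted cells.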

How the results depend on the processing

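Of 488 results recomputed under other settings 471 kept their direction and side of the threshold, as did 736 of 756 recomputed without 1 library. The 756 include fits without a library of neither group compared, in which the fold change cannot move and only the p-value can. The share that stayed the same is therefore no measure of how firm a result is. With a pseudocount of 0.1 the genes called over the whole table numbered 4882 in UH against UN (3254 before), 4126 in SH against SN (2357), 3392 in SN against UN (2037), 4360 in SH against UH (2459) and 5906 in SH against UN (3842). Members called for the difference of responses, 1 before, were 0 with median-of-ratios scaling, 2 with quantile normalization or a mean TPM of at least 1, 2 with the replicate block, and 1 to 2 without single libraries. Replicate numbers did not pair the libraries (correlation of deviations -0.116 to 0.141, over 0.1 in 1 of 18 pairs), and the block changed no other member call than that of Igfbp3 in this difference (adjusted p = 0.0394, limma). The Igf1 difference was 0.95 with median-of-ratios scaling and 0.75 with quantile normalization, both not called. Igfbp3 in it was called with a pseudocount of 0.1 (1.29), quantile normalization (1.30) and a mean TPM of at least 1, and Igfbp2 with quantile normalization (-1.10). Igfbp5 in SH against SN was not called with no filter (limma adjusted p = 0.0597) or with the groups compared alone (adjusted p = 0.0975), and Igfbp5 in SH against UH was called with a pseudocount of 0.1 (1.36) and without SH replicate 3 (1.44) or SN replicate 3 (1.09).

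Values that changed sign were all uncalled. With median-of-ratios scaling they were Igf2r (0.013) and Igfbp6 (0.0019) in UH against UN and Igfbp4 for the difference of responses (-0.023). With quantile normalization they were Igf2r in UH against UN (0.0097) and Igfbp6 in SH against SN (-0.21) and for the difference (-0.20). Without single libraries the log2 fold change of Igf1r ran from -0.068 to 0.59 in UH against UN, from -0.094 to 0.13 in SN against UN and from -0.57 to 0.086 in SN against UH. In SH against SN that of Igf2r ran from -0.099 to 0.21, of Igfbp2 from -0.21 to 0.027 and of Igfbp6 from -0.017 to 0.13. Igfbp3 in SH against UN ran from -0.14 (without UN replicate 1) to 0.56, and Igfbp5 for the difference from -0.17 (without SN replicate 3) to 0.72. The cause of these changes was not tested.

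The median of all genes was -0.19 in UH against UN and moved to 0 with median-of-ratios scaling, by which the share of calls that were higher went from 31.7% to 56.2%. That scaling moved it from 58.8% to 43.6% in SH against UH, from 57.2% to 42.7% in SN against UH and from 78.8% to 53.5% for the difference, and quantile normalization from 29.7% to 42.5% in SN against UN. The summed binding proteins were 1510 TPM in UN and 2816 TPM in UH after median-of-ratios scaling. TPM values carry no depth, which limits what can be read from Igfbp1 and Igfbp6.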
